A study of Rattus norvegicus with 6 samples.

Results

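The DNA replication genes are 45 named genes whose products copy the genome in S phase. They were chosen by name, with earlier results of these data known. A gene counted as measured when the array annotation gave its symbol to a probe set that belongs to no other gene. Of the 45 genes, 43 were measured, out of 18166 named genes on the array. Rrm1 and Tk1 are not analysed here. The 43 genes were sorted by role into 10 for origin licensing and helicase loading, 8 for helicase activation, 15 for polymerases, the sliding clamp and Okazaki fragment processing, 3 for nucleotide supply, 4 for chromatin assembly and histone supply, and 3 regulators of the step from G1 to S phase.

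The samples are cultures of stem cells that plating separated from rat skeletal muscle, with male donors. The series holds 6 libraries, each from 1 Affymetrix Rat Gene 2.0 ST array, with the titles low glucose control, high glucose control, cholesterol, fatty acid, LZ serum and OZ serum. Cholesterol was given at 100 mg/dl with cyclodextrin as carrier, and the labels name sodium palmitate, a saturated fatty acid salt, as the other lipid, without a dose. The labels do not spell out LZ and OZ and give no strain, age, passage or time of exposure. They pair no control with a treatment, and whether a control received cyclodextrin is not stated. With 1 array in each group there was no replicate error and no test, and every difference describes these libraries. The number of arrays limits the precision. The median intensity of the 6 arrays ran from 104.6 to 109.2. A signal filter kept 11540 genes whose mean log2 intensity reached 6.74, the overall median, and all 43 measured genes passed it. Of 10 measured mesenchymal progenitor markers, 10 passed the filter, with Thy1 at log2 13.17 to 13.51, and of 8 muscle lineage markers, 4 passed. The summed intensity was lowest with fatty acid for both lists. It was 51319 there for the mesenchymal markers, against 57953 to 66894 in the other libraries. For the muscle lineage markers it was 3442 with fatty acid, against 5308 to 6338. The muscle lineage sum mostly reflects Ncam1, which lay at log2 11.365 to 12.43. Itga7, the next brightest marker of that list, lay between 7.47 and 7.995. Pax7, a marker of muscle satellite cells, lay between 6.90 and 7.26, and Myf5, Myod1 and Myog, the muscle-determining transcription factors, did not pass. The summed intensity of 8 macrophage and leukocyte markers ran from 868.4 with fatty acid to 1858 with cholesterol. Cd14, at log2 8.41 to 10.13, and Cd68, at 6.77 to 8.37, varied most in that list. Only 3 of the 8 passed the filter, and Ptprc, the pan-leukocyte marker, lay between 5.42 and 5.59. The part of these 3 marker lists in the results was not tested.

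A genome is copied once per cell cycle because loading of the helicase and its activation are kept apart in time. In G1 the origin recognition complex, with Cdc6 and Cdt1, loads rings of Mcm2 to Mcm7 onto DNA. In S phase the kinase Cdc7 with its partner Dbf4, and the factors Mcm10, Cdc45 and GINS, turn those rings into working helicases, after which primase and the polymerases follow with the clamp Pcna. Many of these genes are transcribed by E2F factors late in G1, when cyclin E with Cdk2 relieves repression by the retinoblastoma protein. An array of a whole culture cannot tell fewer cells in S phase from less RNA per replicating cell.

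Sequences just before the start of 6 genes are shown first, because they show both patterns over the libraries, and they were picked after their values and matches were seen. Mcm2, Mcm5, Mcm6 and Mcm7, subunits of the helicase ring, were highest in the low glucose control, and Pcna and Prim1 were highest with fatty acid. Each line gives the last 150 bases before the annotated start, read 5′ to 3′ on the gene's strand from RefSeq, build GRCr8. Capitals mark matches to the letters TTTNNCGC, an E2F-type word in which N is any base, on either strand. The stretches are chr4:122918095-122918244 on the minus strand, chr19:13488663-13488812 on the plus strand, chr13:42404353-42404502 on the minus strand, chr12:22163179-22163328 on the minus strand, chr3:139955821-139955970 on the minus strand, and chr7:1031312-1031461 on the plus strand, in that order.
Mcm2: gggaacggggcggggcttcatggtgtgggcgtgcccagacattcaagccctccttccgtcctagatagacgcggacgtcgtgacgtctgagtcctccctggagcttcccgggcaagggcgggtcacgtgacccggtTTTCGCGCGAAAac
Mcm5: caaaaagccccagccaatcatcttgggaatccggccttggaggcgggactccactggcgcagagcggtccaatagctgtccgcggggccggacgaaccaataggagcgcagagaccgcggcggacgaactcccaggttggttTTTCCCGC
Mcm6: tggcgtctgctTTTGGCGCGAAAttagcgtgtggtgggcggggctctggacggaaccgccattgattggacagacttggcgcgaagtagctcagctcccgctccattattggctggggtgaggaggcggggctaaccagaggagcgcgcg
Mcm7: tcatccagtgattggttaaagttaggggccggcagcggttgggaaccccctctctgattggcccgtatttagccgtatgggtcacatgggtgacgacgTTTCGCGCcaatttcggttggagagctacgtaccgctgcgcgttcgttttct
Pcna: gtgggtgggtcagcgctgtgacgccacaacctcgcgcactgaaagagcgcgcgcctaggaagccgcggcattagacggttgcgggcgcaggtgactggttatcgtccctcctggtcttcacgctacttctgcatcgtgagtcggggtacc
Prim1: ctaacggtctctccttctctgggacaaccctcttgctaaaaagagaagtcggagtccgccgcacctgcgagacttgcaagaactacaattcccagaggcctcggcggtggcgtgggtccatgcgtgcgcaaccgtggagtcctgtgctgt
In Mcm2 the capitals cover 2 overlapping matches on opposite strands, 14 to 3 bases before the start, and in Mcm6 they cover 2 such matches, 139 to 128 bases before it. Mcm5 holds 1 match in the last 8 bases and 2 more further upstream, and Mcm7 holds 1 match 52 to 45 bases before the start and 1 further upstream. Pcna and Prim1 hold no match to these letters. The match does not sort the genes by pattern: Mcm3, Lig1, Chaf1a and Uhrf1, also highest in the low and lowest in the high glucose control, hold none in the 250 bases before the start, and Tyms, highest with fatty acid, holds 1.

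A promoter window was listed for 36 of the 43 genes and not for Orc1, Cdc6, Mcm4, Gins4, Rrm2, Ccne2 and E2f1. The 250 bases before the start were searched on both strands. The E2F-type word was in 9 of 36 windows, or 25.0%, against 4.35% of 27457 windows of that length and 3 of 19 windows of a mitosis list. By role it was in 4 of 7 licensing windows, 2 of 7 for helicase activation and 1 of 15 for polymerases and clamp. The letters CCAAT were in 18 of 36 windows, against 34.3% of all and 14 of 19 windows of the mitosis list. The letters TTTGAA, known as the CHR element of mitotic genes, were in 4 of 36, or 11.1%, against 16.0% of all. In the mitosis list 8 of 19 windows held them. A match is a description of letters and not of a bound site.

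No DNA replication gene differed 2-fold in any of the 6 comparisons. A difference against several libraries was the smallest of the log2 differences where all had the same sign, and 0 otherwise. Among all 11540 genes, 0.355% differed at least 2-fold between the controls, 1.19% between cholesterol and both controls, 2.65% between fatty acid and both controls and 2.82% between cholesterol and fatty acid. The share was 0.026% between OZ and LZ serum and 0.00% between both serum libraries and both controls. The widest gap between any 2 libraries was 1.70-fold, in Gins4 and Prim1, and the median gap was 1.43-fold, against 1.33-fold over all genes. The differences described from here on are therefore small.

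**Figure D1:**
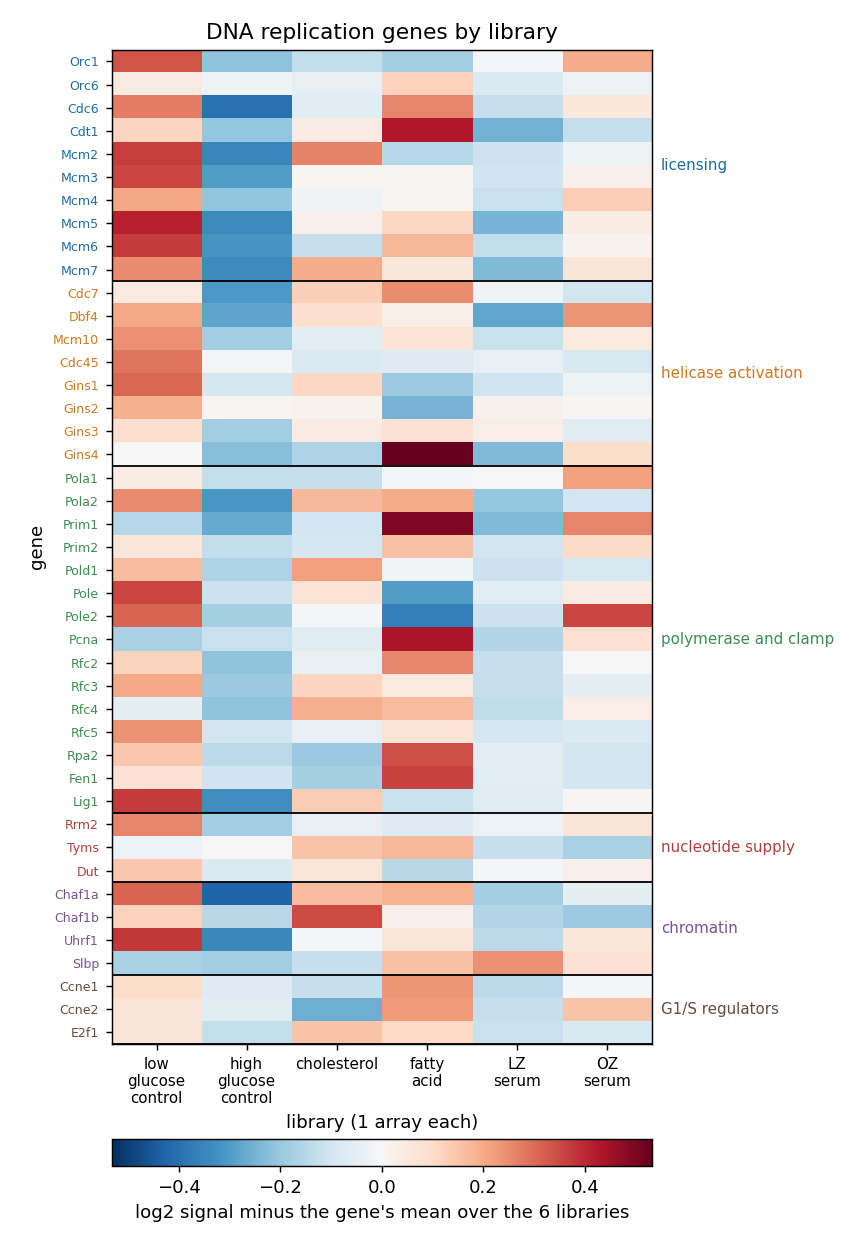
Log2 signal of the 43 DNA replication genes in the 6 libraries, each gene centred on its own mean over the libraries, with genes grouped by role. The low glucose control column is mostly red and the high glucose control column mostly blue, while Gins4, Prim1, Pcna and Cdt1 are highest with fatty acid.

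The control libraries stood at opposite ends. The low glucose control was the highest of the 6 libraries for 22 of 43 genes, or 51.2%, against 17.7% of all genes. The high glucose control was the lowest for 27, or 62.8%, against 11.0% of all genes, and was the highest for 0. The fatty acid library was the highest for 13 genes, or 30.2%, against 30.0% of all genes, so that its share is near the background. The cholesterol library was the highest for 4 genes, or 9.30% against 22.6% of all genes. OZ serum was the highest for 3, or 6.98% against 9.22%, and LZ serum for 1, or 2.33% against 6.98%.

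Between the controls, which ask about glucose in the medium as far as the titles tell, 41 of 43 genes were lower in the high glucose control, against 51.1% of all genes. The median log2 difference, low minus high, was 0.33, against 0.01 over all genes. At 1.5-fold, a log2 difference of 0.585, 9 of 43 genes were lower in the high glucose control and 0 were higher, where 1.11% of all genes were lower by that much. These 9 genes were Mcm5, Chaf1a, Uhrf1, Mcm2, Lig1, Mcm6, Cdc6, Mcm3 and Mcm7. Of the 43 genes, 19 lay above the 95th percentile of all genes, a difference of 0.37, and 0 lay below the 5th. By role the median was 0.62 for licensing, 0.50 for chromatin assembly, 0.33 for polymerases and clamp, 0.32 for helicase activation, 0.22 for nucleotide supply and 0.17 for the G1/S regulators.

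**Figure D2:**
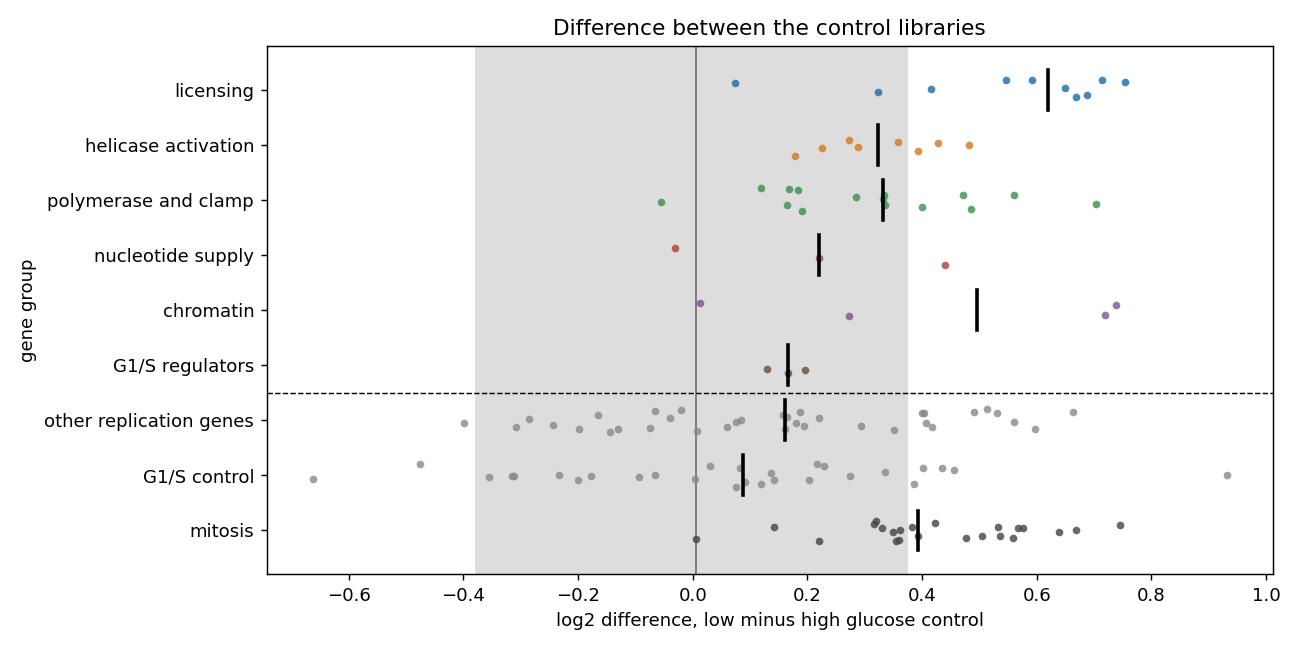
Log2 difference, low minus high glucose control, with 1 point per gene for the 6 role groups above the dashed line and 3 comparison lists below it; black bars are medians and the grey band runs from the 5th to the 95th percentile of all 11540 genes. Of 10 licensing genes 8 lie to the right of the band, the G1/S regulators lie within it, and the mitosis genes are shifted like the replication genes.

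The helicase ring genes shared their extreme libraries. Mcm2 to Mcm7 form the hexamer that unwinds DNA, and for each of these genes the low glucose control was the highest library and the high glucose control the lowest. Mcm5 (probe set 17728080) had log2 signals of 9.04 in the low glucose control, 8.28 in the high glucose control, 8.65 with cholesterol, 8.73 with fatty acid, 8.38 with LZ serum and 8.66 with OZ serum. The low glucose control was thus 1.69-fold above the high glucose control, with the serum and lipid libraries between them. Mcm2 (probe set 17793106) had log2 signals of 9.87 in the low glucose control, 9.16 in the high glucose control, 9.77 with cholesterol, 9.35 with fatty acid, 9.39 with LZ serum and 9.48 with OZ serum. Cholesterol lay close to the low glucose control here, and fatty acid lay nearer to the high glucose control. Mcm6 had log2 signals of 9.05 in the low glucose control, 8.36 in the high glucose control, 8.56 with cholesterol, 8.86 with fatty acid, 8.55 with LZ serum and 8.69 with OZ serum. In Mcm6 the order of the lipids was the other way round, with fatty acid above cholesterol by 0.30.

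Mcm3 had log2 signals of 8.90 in the low glucose control, 8.25 in the high glucose control, 8.56 with cholesterol, 8.55 with fatty acid, 8.44 with LZ serum and 8.57 with OZ serum, and low minus high was 0.65. A second probe set of Mcm3 gave 0.84 for this difference. Mcm7 had log2 signals of 9.23 in the low glucose control, 8.64 in the high glucose control, 9.17 with cholesterol, 9.03 with fatty acid, 8.74 with LZ serum and 9.04 with OZ serum. Cholesterol minus the low glucose control was -0.05, so these libraries lay close together. Mcm4 had log2 signals of 10.30 in the low glucose control, 9.88 in the high glucose control, 10.07 with cholesterol, 10.10 with fatty acid, 9.97 with LZ serum and 10.22 with OZ serum, which gave the smallest gap between the controls in the ring, 0.42, and its second probe set gave 0.33.

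The loaders of the ring did not share 1 order of libraries. Cdc6, the ATPase that recruits Cdt1 and the ring, was lower in the high glucose control by 0.67, and fatty acid minus the low glucose control was -0.01. Orc1, the ATPase subunit of the origin recognition complex, was lower in the high glucose control by 0.55, and the lipid libraries lay near that low level, at 7.17 with cholesterol and 7.12 with fatty acid against 7.09. Cdt1, which escorts the ring to origins, was highest with fatty acid, at 8.19 against 7.88 in the low and 7.56 in the high glucose control. Orc6, a further subunit of the recognition complex, spanned 0.20 over the 6 libraries.

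Among helicase activators, Dbf4 and Cdc7, the subunits of the S-phase kinase, differed in their highest library. Dbf4, the subunit that switches on Cdc7, had log2 signals of 8.07 in the low glucose control, 7.58 in the high glucose control, 7.95 with cholesterol, 7.89 with fatty acid, 7.58 with LZ serum and 8.10 with OZ serum. OZ serum and the low glucose control were the highest and the high glucose control and LZ serum the lowest. Cdc7 was highest with fatty acid, at 7.86 against 7.66 and 7.31 in the low and high glucose controls. Mcm10, a scaffold that helps start unwinding, had log2 signals of 8.28 in the low glucose control, 7.85 in the high glucose control, 7.97 with cholesterol, 8.11 with fatty acid, 7.92 with LZ serum and 8.09 with OZ serum, and low minus high was 0.43. Cdc45, which joins the ring and GINS in the active helicase, was at 7.98 in the low glucose control and between 7.61 and 7.69 in the other libraries.

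The 4 GINS subunits form a single tight complex in the helicase. With fatty acid, Gins4 lay above both controls, Gins1 and Gins2 lay below both, and Gins3 lay between them. Gins4 (probe set 17708829) had log2 signals of 9.13 in the low glucose control, 8.90 in the high glucose control, 8.97 with cholesterol, 9.66 with fatty acid, 8.90 with LZ serum and 9.23 with OZ serum. Fatty acid exceeded the nearer control by 0.53 and was the highest library. Gins1 had log2 signals of 7.48 in the low glucose control, 7.09 in the high glucose control, 7.29 with cholesterol, 6.98 with fatty acid, 7.07 with LZ serum and 7.15 with OZ serum, and Gins2 had log2 signals of 7.68 in the low glucose control, 7.50 in the high glucose control, 7.51 with cholesterol, 7.24 with fatty acid, 7.51 with LZ serum and 7.50 with OZ serum. For both of these genes the fatty acid library was the lowest of the 6, below the nearer control by 0.10 and 0.26. Gins3 had log2 signals of 8.02 in the low glucose control, 7.75 in the high glucose control, 7.97 with cholesterol, 8.01 with fatty acid, 7.97 with LZ serum and 7.87 with OZ serum and spanned 0.27 over all libraries.

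Primase and the polymerases showed a similar split. Prim1 (probe set 17825446), the catalytic primase subunit that makes RNA primers, had log2 signals of 9.39 in the low glucose control, 9.28 in the high glucose control, 9.45 with cholesterol, 10.04 with fatty acid, 9.31 with LZ serum and 9.80 with OZ serum. Fatty acid and OZ serum were the highest libraries, and fatty acid exceeded the nearer control by 0.65. A second probe set of Prim1 gave 0.44 for that difference, so the size depends on the probe set. Prim2, the other primase subunit, exceeded the nearer control by 0.09 with fatty acid. Pola2, a regulatory subunit of the priming polymerase alpha, had log2 signals of 9.29 in the low glucose control, 8.73 in the high glucose control, 9.21 with cholesterol, 9.24 with fatty acid, 8.84 with LZ serum and 8.94 with OZ serum, with low minus high at 0.56. Pola1, the catalytic subunit, was highest with OZ serum, at 8.29 against 7.94 in the high glucose control.

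For polymerase epsilon, which copies the leading strand, RNA of the subunits Pole and Pole2 was lowest with fatty acid. Pole, the catalytic subunit, was at 8.39 there against 8.58 in the high and 9.05 in the low glucose control. Pole2, a further subunit, was at 7.10 with fatty acid against 7.29 and 7.77 in those controls, and OZ serum was the highest at 7.82. Pold1, the catalytic subunit of the lagging-strand polymerase delta, was highest with cholesterol, at 8.23, and lowest in the high glucose control, at 7.85.

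Pcna (probe set 17777527), the ring-shaped clamp that holds polymerases on DNA, was described after its values were seen. It had log2 signals of 10.93 in the low glucose control, 10.99 in the high glucose control, 11.04 with cholesterol, 11.54 with fatty acid, 10.95 with LZ serum and 11.19 with OZ serum. Fatty acid exceeded the nearer control by 0.55, and Pcna was 1 of only 2 genes, with Tyms, that did not lie lower in the high glucose control. The clamp loader subunits were less far apart. Rfc2 had log2 signals of 9.34 in the low glucose control, 9.00 in the high glucose control, 9.18 with cholesterol, 9.47 with fatty acid, 9.09 with LZ serum and 9.22 with OZ serum, and Rfc3 had 7.67 in the low glucose control, 7.27 in the high glucose control, 7.58 with cholesterol, 7.52 with fatty acid, 7.34 with LZ serum and 7.41 with OZ serum. Rfc4 had log2 signals of 8.07 in the low glucose control, 7.90 in the high glucose control, 8.31 with cholesterol, 8.28 with fatty acid, 7.98 with LZ serum and 8.15 with OZ serum, and Rfc5 had 8.80 in the low glucose control, 8.47 in the high glucose control, 8.52 with cholesterol, 8.64 with fatty acid, 8.47 with LZ serum and 8.49 with OZ serum. Low minus high lay between 0.17 for Rfc4 and 0.40 for Rfc3, and both lipid libraries exceeded both controls in Rfc4, by at least 0.24 with cholesterol and 0.21 with fatty acid.

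Of the proteins that join Okazaki fragments, the ligase Lig1 followed the helicase ring and the flap nuclease Fen1 did not. Lig1 had log2 signals of 9.38 in the low glucose control, 8.68 in the high glucose control, 9.14 with cholesterol, 8.89 with fatty acid, 8.94 with LZ serum and 9.01 with OZ serum. The low glucose control exceeded the high glucose control 1.63-fold, and fatty acid lay nearer to the high glucose control. Fen1 was highest with fatty acid, at 7.78, and lowest with cholesterol, at 7.24, with controls at 7.50 and 7.31. Rpa2, a subunit of the protein that coats single-stranded DNA, had the same highest and lowest libraries, at 8.84 and 8.30.

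Among the nucleotide supply genes Rrm2 differed most between the controls, and Tyms and Dut differed less. Rrm2, the regulated subunit of ribonucleotide reductase, which makes deoxynucleotides, had log2 signals of 12.06 in the low glucose control, 11.62 in the high glucose control, 11.76 with cholesterol, 11.74 with fatty acid, 11.77 with LZ serum and 11.87 with OZ serum. Low minus high was 0.44, above the 95th percentile of all genes, and a second probe set of Rrm2 gave 0.73. Another probe set, shared with the near-identical Rrm2l1, was not used, and signal from that copy in the other probe sets cannot be told apart. Tyms, the thymidylate synthase, had log2 signals of 9.27 in the low glucose control, 9.30 in the high glucose control, 9.46 with cholesterol, 9.48 with fatty acid, 9.18 with LZ serum and 9.13 with OZ serum, with the lipid libraries highest. Dut, which removes dUTP, had log2 signals of 7.30 in the low glucose control, 7.08 in the high glucose control, 7.22 with cholesterol, 7.01 with fatty acid, 7.15 with LZ serum and 7.18 with OZ serum, and its largest gap between libraries was 1.22-fold.

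Chaf1a and Uhrf1, of the chromatin genes, lay as far apart between the controls as the helicase ring did. Chaf1a, the large subunit of the chaperone that places histones behind the fork, had log2 signals of 7.57 in the low glucose control, 6.83 in the high glucose control, 7.42 with cholesterol, 7.44 with fatty acid, 7.08 with LZ serum and 7.20 with OZ serum. The high glucose control lay near the overall median, 6.74, so this fold, 1.67, is less certain. Uhrf1, which carries DNA methylation over to the new strand, had log2 signals of 9.79 in the low glucose control, 9.07 in the high glucose control, 9.40 with cholesterol, 9.48 with fatty acid, 9.27 with LZ serum and 9.47 with OZ serum. The order of its controls was that of the ring, at 1.65-fold. Chaf1b, the partner of Chaf1a, was highest with cholesterol, at 8.07 against 7.84 and 7.57 in the controls. Slbp, which binds the stem-loop of histone mRNA, had log2 signals of 6.67 in the low glucose control, 6.65 in the high glucose control, 6.72 with cholesterol, 6.997 with fatty acid, 7.08 with LZ serum and 6.92 with OZ serum. It was higher in both serum libraries and with fatty acid than in both controls, at signals close to 6.74. Both controls and cholesterol lay below 6.74, so Slbp passed the signal filter only through the libraries where it was high.

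By the median gap between the highest and lowest library, the G1/S regulators varied the least of the role groups along with nucleotide supply. Ccne1, or cyclin E1, had log2 signals of 9.98 in the low glucose control, 9.81 in the high glucose control, 9.76 with cholesterol, 10.12 with fatty acid, 9.75 with LZ serum and 9.88 with OZ serum. Ccne2, or cyclin E2, had log2 signals of 8.73 in the low glucose control, 8.60 in the high glucose control, 8.41 with cholesterol, 8.89 with fatty acid, 8.54 with LZ serum and 8.82 with OZ serum. Both cyclins were highest with fatty acid and below both controls with cholesterol. E2f1, the activating E2F factor, had log2 signals of 8.19 in the low glucose control, 7.99 in the high glucose control, 8.27 with cholesterol, 8.23 with fatty acid, 7.997 with LZ serum and 8.04 with OZ serum and spanned 1.21-fold.

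The next comparisons ask how each lipid differed from control cells, and the direction depended on the control for 28 of 43 genes with cholesterol and 21 of 43 with fatty acid. Cholesterol was higher than the high glucose control in 37 of 43 genes, against 52.3% of all genes, and lower than the low glucose control in 34, against 49.6% of all genes. The medians were 0.19 and -0.16. Against both controls 9 genes were higher, against 36.3% of all genes, and 6 were lower, against 33.6%. At 1.5-fold 0 genes differed from both controls, against 3.40% of all genes. The highest values were Rfc4 at 0.24 and Chaf1b at 0.23, and the lowest was Ccne2 at -0.20.

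Fatty acid was higher than the high glucose control in 37 of 43 genes, against 51.1% of all genes, and lower than the low glucose control in 27, against 50.5% of all genes. The medians were 0.29 and -0.12. Against both controls 16 genes were higher, against 40.4% of all genes, and 6 were lower, against 39.7%. The controls lay apart for most of these genes, which by itself limits how many can lie below both. The low count is therefore not read as a trait of fatty acid, and cholesterol gave the same count of 6. At 1.5-fold Prim1 was higher than both controls, which is 1 of 43 genes against 2.92% of all genes, and 0 were lower, against 6.13%. With the mean of its probe sets in place of the brighter one, Prim1 did not reach 1.5-fold. After Prim1 the largest differences were in Pcna (0.55), Gins4 (0.53), Slbp (0.33), Cdt1 (0.31) and Fen1 (0.28). Slbp passed the signal filter only through the libraries where it was high. The 6 lower genes were Gins2 (-0.26), Pole2 (-0.19), Pole (-0.18), Gins1 (-0.10), Dut (-0.07) and Cdc45 (-0.06). Both lipids were read against the same controls, so their values are given side by side and no overlap was counted.

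**Figure D3:**
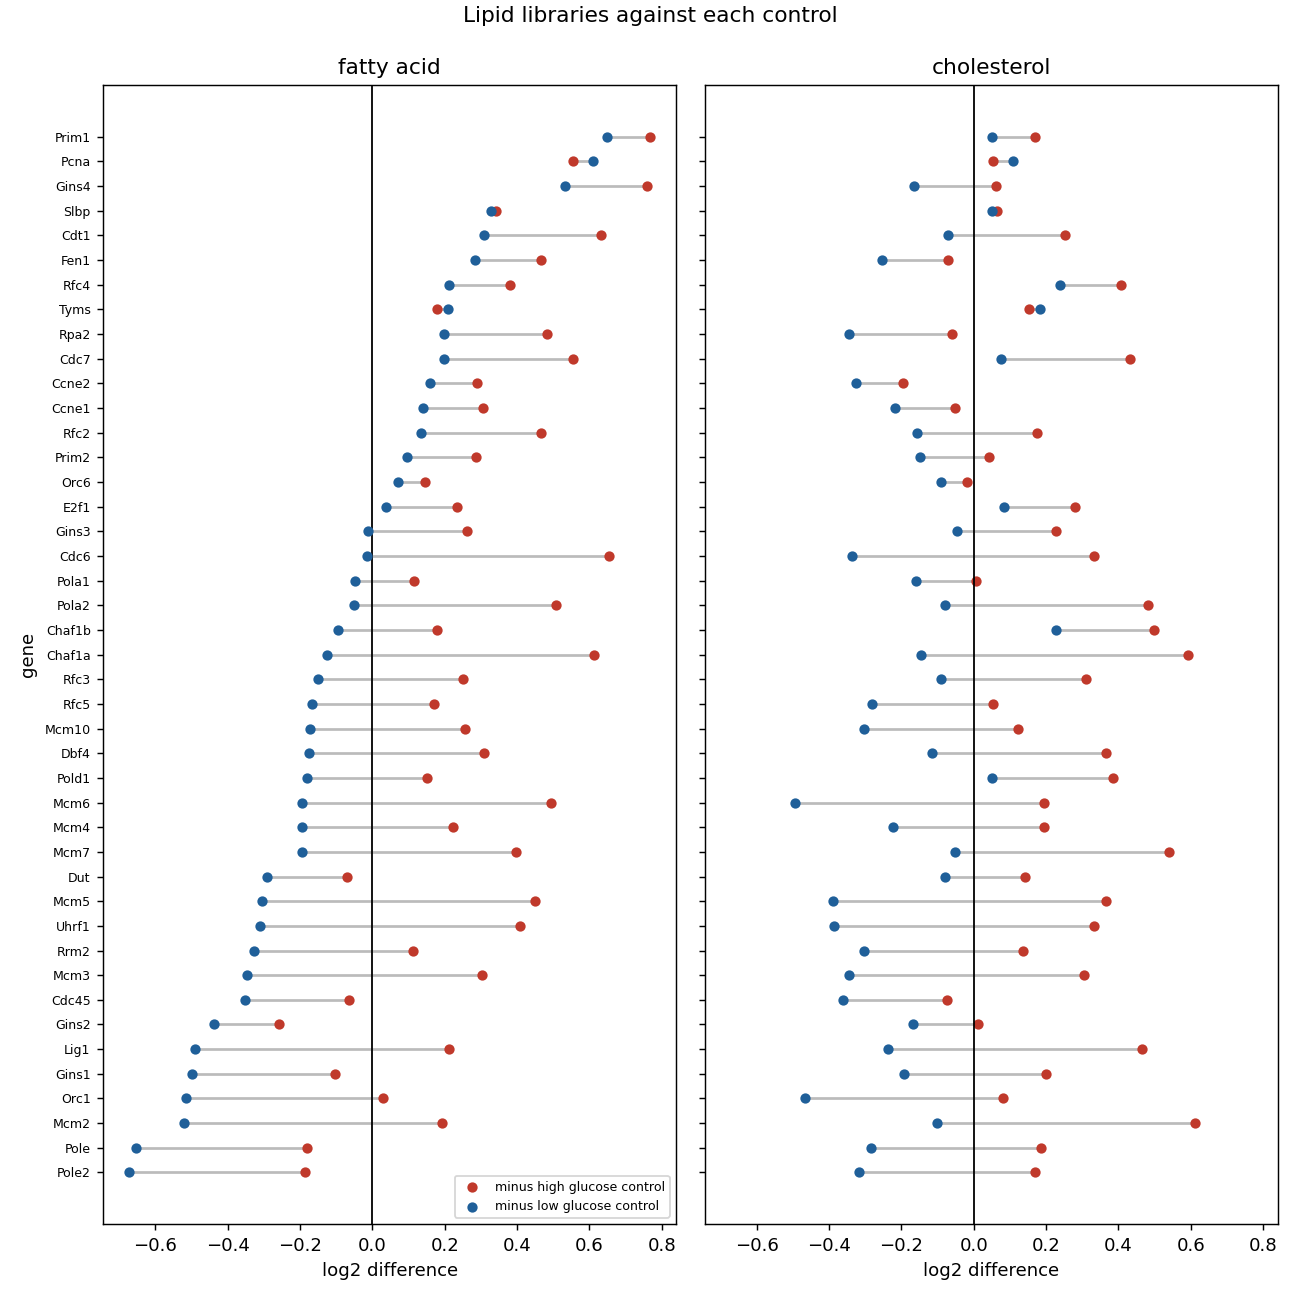
Log2 difference of the fatty acid library (left) and the cholesterol library (right) from the high glucose control (red) and the low glucose control (blue), with 1 row per gene in the same order. With fatty acid, 16 genes from Prim1 down to E2f1 have both points to the right of 0, and with cholesterol most rows cross 0.

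Set directly against fatty acid, cholesterol was lower in 26 of 43 genes, against 48.0% of all genes, with a median of -0.03. At 1.5-fold it was lower in Gins4 (-0.70) and Prim1 (-0.60), 2 of 43 genes against 4.31% of all genes, and higher in 0, against 7.43%. Rpa2 (-0.54), Fen1 (-0.54), Pcna (-0.50) and Ccne2 (-0.48) followed. Mcm2 (0.42), Pole (0.37), Pole2 (0.36) and Chaf1b (0.32) were higher with cholesterol. By role, the median of cholesterol minus fatty acid was -0.06 for licensing, -0.02 for helicase activation, -0.11 for polymerases and clamp, 0.02 for nucleotide supply and -0.36 for the G1/S regulators.

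The serum libraries lay between the controls. LZ serum exceeded the high glucose control in 33 of 43 genes, against 45.8% of all genes, with a median of 0.07, and lay below the low glucose control in 41, against 54.8%, with a median of -0.29. OZ serum exceeded the high glucose control in 38 genes, against 38.8% of all genes, with a median of 0.22, and lay below the low glucose control in 33, against 58.4%, with a median of -0.18. Only Slbp was higher in both serum libraries than in both controls, against 8.83% of all genes. It passed the signal filter only through the libraries where it was high. Both serum libraries were lower than both controls in 4 genes (Tyms, Cdc45, Chaf1b and Orc6), against 19.7% of all genes, by at most 0.09. After quantile normalization or loess this count was 2.

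OZ serum exceeded LZ serum in 34 of 43 genes, against 41.9% of all genes, with a median of 0.12 against -0.03 for all genes. All 10 licensing genes and 13 of 15 polymerase and clamp genes were higher with OZ serum. The counts were 4 of 8 for helicase activation, 2 of 4 for chromatin assembly, 2 of 3 for nucleotide supply and 3 of 3 for the G1/S regulators. Of 23 mitosis genes past the signal filter, 23 were higher, with a median of 0.23. At 1.5-fold 0 genes differed, against 0.26% of all genes. The largest differences were in Dbf4 (0.51), Prim1 (0.50), Pole2 (0.47) and Gins4 (0.33), and the lowest was in Slbp (-0.17).

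Other genes of the pathway came from lists of names, also chosen with earlier results of these data known. Of 35 genes past the signal filter that also serve replication, 23 were lower in the high than in the low glucose control, against 51.1% of all genes. The median low minus high was 0.16. Asf1b, a histone chaperone, was lower by 0.66 and Pole3, a small subunit of polymerase epsilon, by 0.60. These were the only 2 of 35 at 1.5-fold, where 1.11% of all genes were lower by that much. Timeless, a fork protection factor, and Chtf18, part of an alternative clamp loader, followed at 0.56 and 0.53. Against both controls, 0 of these 35 reached 1.5-fold with either lipid, against 3.40% of all genes with cholesterol and 9.05% with fatty acid. Rpa3, on the same list but below the signal filter, was lower than both controls at 1.5-fold with fatty acid. The highest with fatty acid were Mcmbp (0.44), which binds the helicase ring, and Donson (0.41), a replisome factor. Orc2, a subunit of the recognition complex, was lower with cholesterol than with fatty acid, at -0.63.

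Of 28 genes of G1/S control past the signal filter, 18 were lower and 10 higher in the high than in the low glucose control. Among all genes 51.1% were lower and 48.9% higher. For this list the median low minus high was 0.09. Mybl2, a transcription factor of cycling cells, was lower in the high glucose control by 0.93, and Rb1, the retinoblastoma protein, was higher by 0.66. With fatty acid, E2f5 (0.65) and Myc (0.59) were higher than both controls at 1.5-fold, and the kinase inhibitors Cdkn2a (-0.65) and Cdkn2b (-0.65) were lower, 2 of 28 each way against 2.92% and 6.13% of all genes. With cholesterol, only Cdk6, a kinase that acts early in G1, reached 1.5-fold, at -0.67, which is 1 of 28 against 3.40% of all genes. These shares rest on very few genes. Myc was more than 2-fold lower with cholesterol than with fatty acid (-1.25).

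Mitosis genes shifted like the replication genes between the controls, and the medians of both lists lay furthest apart with fatty acid. Of 23 mitosis genes past the signal filter, 23 were lower in the high glucose control, against 51.1% of all genes. Their median low minus high was 0.39. Prc1 (0.74), a spindle protein, and the kinase Plk1 (0.67) led. With fatty acid the mitosis median was -0.07 against the high and -0.49 against the low glucose control, and the replication median exceeded it by 0.36 against either control. With cholesterol the replication median exceeded the mitosis median by 0.15 and 0.20. With OZ serum the mitosis median was the higher by 0.22 and 0.13. Fatty acid was the lowest of the 6 libraries for 14 of 23 mitosis genes and for 5 of 43 replication genes, against 29.0% of all genes. OZ serum was the highest library for 10 of 23 mitosis genes, or 43.5%, and for 3 of 43 replication genes, or 6.98%, against 9.22% of all genes. These gaps between lists have no error.

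**Figure D4:**
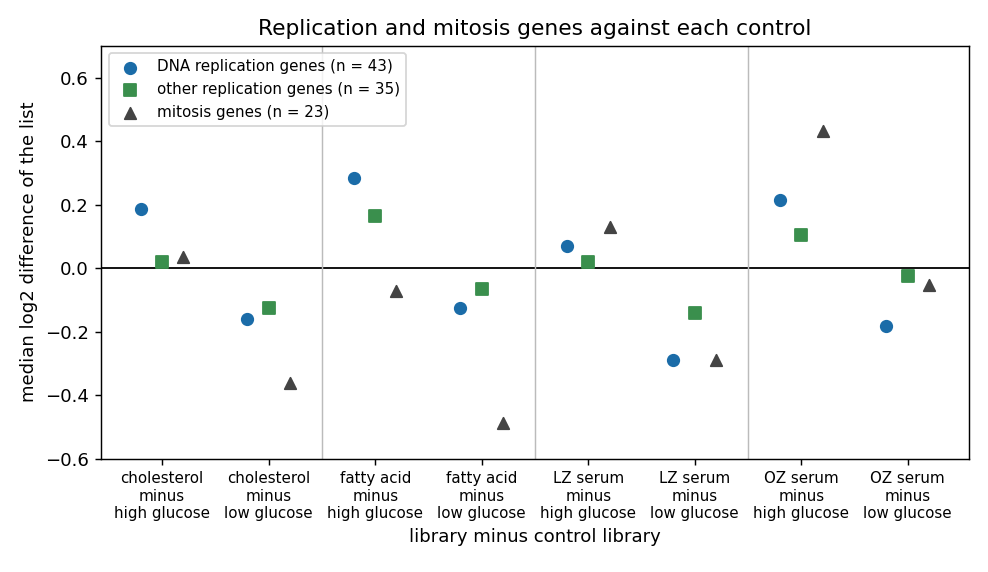
Median log2 difference of 43 DNA replication genes (circles), 35 other replication genes (squares) and 23 mitosis genes (triangles) for each lipid or serum library minus each control. With fatty acid the triangles lie below the circles by 0.36 against either control, and with OZ serum they lie above them.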

How the data were processed

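RNA was measured on 6 Affymetrix Rat Gene 2.0 ST arrays, 1 per group. The authors deposited a value table with 1 value per probe set and array, of unstated scale, which was read as linear intensity because all values were positive and reached 18205. How probe sets were summarised and normalized is not given in the sources used here. If that step scaled the arrays together, a shift shared by all genes would not be visible. From these values log2 was computed without an offset, with no further scaling. Of 36685 probe sets, 18511 carried 1 gene symbol, 575 several and 17599 none, and only the first were used. For a gene with several probe sets, the one with the highest mean was taken. All 43 symbols were also in the RefSeq table of build GRCr8.

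Genes were kept where the mean log2 intensity reached the overall median, 6.74. A difference against several libraries was the smallest one where all signs agreed, and thresholds were 2-fold and 1.5-fold. With 1 array per group no test was run. Simulated data with known differences were used to test the counting. The members and lists were chosen with earlier results of these data known. Values in every library were given for the 3 members of each role with the largest differences and for the Mcm2-7, Gins, Rfc and ribonucleotide reductase complexes. The plan was to name up to 4 genes per comparison list, and more are named here. Pcna, Cdt1, Fen1, Rpa2, Cdc6, Orc1, Pole and Pole2 were described after their values were seen. Alternatives were quantile normalization, centring, loess, an offset of 32, the mean of probe sets, other filters, other thresholds and single controls or sera. Scaling alternatives ran in limma 3.58.1 under R 4.3.3, and all else in Python 3.11.15 with pandas 2.3.3, numpy 2.4.6 and, for figures, matplotlib 3.10.9.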

Additional observations from a re-analysis of the deposited data

How the results depend on the processing

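No paired analysis was possible because each group has 1 sample. The medians of the 43 genes kept their sign in all 11 pairs of libraries under the scaling, offset, filter and probe set alternatives, but the balance of higher and lower genes with a lipid depended on the control. A stricter signal filter kept 21 of the 43 genes, and counts were smaller because fewer genes were tested. Under it, high glucose below low glucose counted 19 genes, cholesterol against both controls 3 higher and 3 lower, fatty acid 9 higher and 1 lower, cholesterol against fatty acid 6 higher and 15 lower, OZ against LZ serum 19 higher and 2 lower, and both sera against both controls 0 higher and 1 lower. The low glucose control was then the highest library for 12 genes and the high glucose control the lowest for 14. Reading cholesterol against the high glucose control alone gave 37 higher, against the low alone 34 lower, and against the mean of the controls 21 higher and 22 lower. Fatty acid gave 37, 27, 31 and 12 in that order. Against both controls more genes were higher than lower (cholesterol 9 to 6, fatty acid 16 to 6), and against the low glucose control alone this turned (9 to 34, and 16 to 27). Both sera gave 32 higher than the high and 2 higher than the low glucose control alone, and 33 lower than the low alone. OZ serum alone gave 10 higher and LZ serum alone 9 lower. Both quantile normalization and loess left 2 genes lower in both sera. Lowering the threshold from 2-fold to 1.5-fold gave 9 genes lower in the high glucose control, 1 higher with fatty acid and 2 lower with cholesterol than with fatty acid. At 1.5-fold, cholesterol counted 2 higher against the high glucose control alone, against 2.48% of all genes. Fatty acid counted 2 higher after quantile normalization and 0 with the mean of probe sets. Against the high glucose control alone it counted 5 higher, against 4.47% of all genes. Against the low alone it counted 2 higher, against 4.97%, and 2 lower, against 8.81%. No share over all genes was computed under the stricter filter, other scalings, the mean of the controls or single sera. Cholesterol below fatty acid counted 4 after quantile normalization and 1 with an offset. Dim signals such as Slbp, close to the filter, limit what small differences can show.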

Other observations

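Rpa3, the smallest subunit of the protein that coats single-stranded DNA, did not pass the signal filter and is outside the 43 genes. It is on the list of other replication genes and was left out of the 35 counted there. Its log2 difference was -0.66 with cholesterol and -0.74 with fatty acid against the high glucose control, and -0.55 and -0.63 against the low glucose control. It was chosen after its values were seen.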
